A study of Mus musculus with 9 samples.

Results

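Complement was followed here through 9 genes in B cells and macrophages of mice: the 3 chains of C1q (C1qa, C1qb and C1qc), the components C3, C4b, factor B (Cfb) and properdin (Cfp), and the receptors C3ar1 and C5ar1. They were chosen by gene name as complement components and receptors among the 55322 genes of the deposited table, and all 9 were found there. The RNA came from B cells of the bone marrow (BM) of wild type mice, sorted by surface CD11b into CD11b+ and CD11b- B cells 48 h after LPS (5 mg/kg), an endotoxin of bacterial membranes, and from CD11b+F4/80+ macrophages of the peritoneal cavity (PMs) of naive wild type mice. Each of the 3 groups had 3 libraries. PMs differed from both B cell groups in cell type, tissue and treatment at once, and these differences cannot be told apart. The study draws FPKM of 3 libraries a group with the SD, which it keeps for biological replicates, but the labels do not tie libraries to animals, so the p-values measure the spread between these libraries.

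Complement is a cascade of plasma proteins that marks microbes and dying cells. C1q, made largely by macrophages, binds antibody on a surface and starts the classical pathway by cleavage of C4 and then C3, while factor B and properdin build and stabilize the C3 convertase of the alternative pathway. The fragments C3a and C5a recruit and activate myeloid cells through the receptors encoded by C3ar1 and C5ar1. B cells are best known in this system for the receptor of C3 fragments, CD21 (Cr2), and not as a source of C1q.

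The libraries held 18014658 to 35251215 reads on genes. Summed over 12 B cell markers, FPKM (fragments counted on a gene, scaled by its exon length and the depth of the library) were 22572 to 24763 in CD11b+ B cells, 23649 to 24305 in CD11b- B cells and 951 to 1793 in PMs. Of the 12, 2 (Ighm and Pax5) had the higher mean in CD11b+ B cells, and Cd79a, Cd79b and Cd22 were lower there than in CD11b- B cells without overlap, as for Cd79b with 1374 to 1646 against 1966 to 2115 FPKM. Summed over 12 peritoneal macrophage markers, PMs had 12266 to 16986 FPKM, and both labels therefore matched their defining markers. CD11b+ B cells also carried RNA of markers of other cell types, which is given below. In RNA from many cells, fewer cells of a type and less RNA per cell cannot be told apart.

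The 3 C1q genes lie side by side on chromosome 4 of GRCm38, on the minus strand, at 136895917-136898803 (C1qa), 136889804-136893065 (C1qc) and 136880129-136886187 (C1qb). C4b (34728380-34743882), Cfb (34856374-34862518) and C3 (57203970-57228136) are on chromosome 17, and Cfp (20925454-20931555) is on chromosome X. C3ar1 (122847138-122856161) is on chromosome 6 and C5ar1 (16246743-16259540) on chromosome 7. All 9 are protein-coding genes on the minus strand. Of the 150-base stretches of their transcripts, 7.48% of those of C4b also occur in C4a, and 61.8% of those of Cfb occur in the readthrough gene Gm20547, which was listed at 0 reads in every library. For the other 7 genes no such stretch occurred in another gene.

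The promoters of C1qb, C3 and Cfp are shown because C1qb and C3 were higher in every CD11b+ than in every CD11b- B cell library, and Cfp was the most abundant complement gene of both B cell groups. Each sequence covers the 250 bases before the RefSeq start on GRCm38.p6, minus strand, read 5′ to 3′, at chr4:136886201-136886450, chr17:57228137-57228386 and chrX:20931556-20931805, and capitals mark matches to the motifs named below.
C1qb: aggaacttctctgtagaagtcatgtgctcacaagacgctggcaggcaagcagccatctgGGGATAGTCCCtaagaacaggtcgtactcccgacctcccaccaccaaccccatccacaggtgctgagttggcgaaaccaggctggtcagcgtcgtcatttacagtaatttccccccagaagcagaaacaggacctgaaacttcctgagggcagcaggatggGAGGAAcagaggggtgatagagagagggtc
C3: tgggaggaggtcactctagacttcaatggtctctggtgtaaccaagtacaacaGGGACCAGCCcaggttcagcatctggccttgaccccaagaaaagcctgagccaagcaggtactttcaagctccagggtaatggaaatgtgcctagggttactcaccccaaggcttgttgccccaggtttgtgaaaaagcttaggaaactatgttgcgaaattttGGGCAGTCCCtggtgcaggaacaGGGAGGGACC
Cfp: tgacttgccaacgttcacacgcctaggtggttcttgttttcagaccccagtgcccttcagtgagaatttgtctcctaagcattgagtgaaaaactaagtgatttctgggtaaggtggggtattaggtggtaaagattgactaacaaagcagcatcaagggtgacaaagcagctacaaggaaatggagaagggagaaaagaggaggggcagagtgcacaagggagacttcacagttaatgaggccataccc

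Promoters were found for 6 of the 9 genes, those of C1qb, C1qc, C3, Cfp, C3ar1 and C5ar1. On both strands, the PU-box letters GAGGAA, bound by the myeloid and B cell factor PU.1, occurred in C1qb, from base 30 to base 25 before the start, and in C1qc, while 23.3% of all 32851 promoters held them. The NF-kB letters (GGGA, any 4 bases, CC) occurred in C1qb (matches on both strands that overlap), C1qc and C3 (at 3 places), and in 17.6% of all promoters. The AP-1 letters TGANTCA occurred in C3ar1 (6.75% of all promoters). Neither the MAF half-site TGCTGAC (3.81% of all promoters) nor the ISRE core (GAAA, any 2 bases, GAAA, 2.98%) occurred in any of the 6. The NF-kB letters were added after the sequences had been seen. In the Cfp promoter none of these letters occurred.

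The order of the 9 genes by level, in FPKM and so per exon length, differed between B cells and PMs. In PMs C1qb was highest (4340 ± 1321 FPKM, SD, n = 3), followed by Cfp (2343 ± 154), C1qa (1974 ± 462), C1qc (1860 ± 191) and C4b (1028 ± 54.7). The ranges of Cfp, C1qa and C1qc overlapped from neighbour to neighbour in that order. C5ar1, C3ar1 and C3 followed with overlapping ranges, at 74.1 ± 26.0, 70.6 ± 11.1 and 60.4 ± 6.26 FPKM, and Cfb was lowest (1.77 ± 0.587 FPKM). In both B cell groups Cfp came first, its range apart from that of C1qb, which came second. C1qa and C1qc followed with overlapping ranges in both B cell groups. Below them, the ranges of C3, C5ar1, C4b, C3ar1 and Cfb in CD11b+ B cells overlapped from each to the next, whereas in CD11b- B cells C4b stood above C5ar1, C3ar1 and C3.

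**Figure D1:**
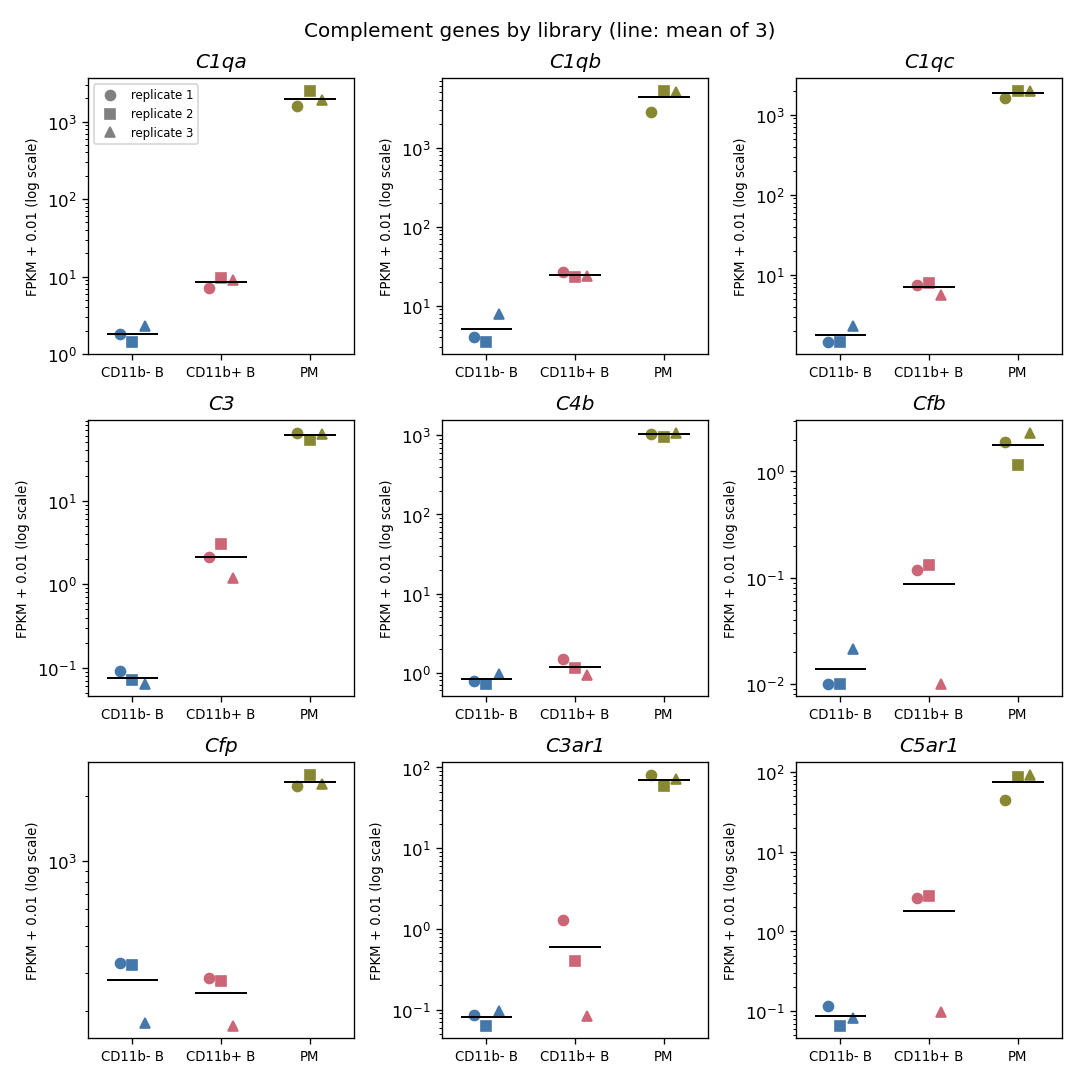
FPKM + 0.01 (log axis, a separate scale in each panel) of the 9 complement genes in each library, by group, with symbols for the replicates and a line at the mean of 3 libraries. C1qa, C1qb, C1qc and C3 had all CD11b+ libraries above all CD11b- libraries, Cfp did not separate the B cell groups, and PMs were highest in every panel.

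CD11b+ B cells carried more C1q and C3 RNA than CD11b- B cells in every library, by 4.03-fold to 4.79-fold for the C1q chains and 31.8-fold for C3 in mean FPKM, but neither these nor the other complement genes passed the limma test at an adjusted p of 0.05. Properdin and C4b RNA did not separate the groups. The receptor genes C3ar1 and C5ar1 were high in some CD11b+ libraries and at the CD11b- level in replicate 3. Of the 9 genes, 8 passed the filter of a mean FPKM of at least 0.05 and were tested, and 0 of 8 were called. Over all genes tested, limma called 15 of 21778 (0.0689%) higher and 0.0% lower in CD11b+ B cells. At an unadjusted limma p under 0.05, 5 of the 8 were higher and 0 lower (4.65% of all genes higher, 3.04% lower). For 4 of the 9 genes all CD11b+ libraries lay above all CD11b- libraries and for 0 of 9 below them, and 8.63% and 6.32% of all genes tested did so. The median difference of the 8 genes tested was 1.34 on the log2(FPKM + 1) scale, beside 0.03 for all genes.

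C1q forms the recognition part of the classical pathway from its A, B and C chains. C1qa, the A chain, was at 7.14, 9.66 and 8.92 FPKM in CD11b+ replicates 1, 2 and 3 and at 1.79, 1.43 and 2.28 FPKM in CD11b- replicates 1, 2 and 3. The lowest CD11b+ library was above the highest CD11b- library. The difference was 1.76 ± 0.221 (SE) on the log2(FPKM + 1) scale with a limma adjusted p of 0.0563. C1qb, the B chain, was at 27.1, 22.9 and 24.1 FPKM in the CD11b+ libraries, against 3.99, 3.50 and 7.97 FPKM in the CD11b- libraries. It varied little among CD11b+ libraries, and CD11b- replicate 3 stood above the other CD11b- libraries. The difference on the log2(FPKM + 1) scale was 2.13 ± 0.263 (limma adjusted p = 0.0525), and without CD11b- replicate 3 it was 2.44 (limma adjusted p = 0.0183). C1qc, the C chain, was at 7.46, 7.93 and 5.597 FPKM in CD11b+ B cells and at 1.44, 1.45 and 2.31 FPKM in CD11b- B cells. Again the groups did not overlap, and the difference was 1.55 ± 0.240 (limma adjusted p = 0.0997).

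C1qb was the highest of the chains in all 9 libraries. It exceeded C1qa by 1.79-fold to 2.68-fold in PMs, by 2.24-fold to 3.50-fold in CD11b- B cells and by 2.37-fold to 3.80-fold in CD11b+ B cells, so the ranges of the groups overlapped. The summed FPKM of the chains was 41.7, 40.5 and 38.6 in CD11b+ replicates 1, 2 and 3. These libraries were thus within a narrow range of C1q RNA.

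C3, on which all pathways converge, was at 2.10, 3.02 and 1.164 FPKM in the CD11b+ libraries (317, 406 and 211 reads) and at 0.082, 0.061 and 0.055 FPKM in the CD11b- libraries, which held 34 reads in all. Every CD11b+ library lay above every CD11b- library, with replicate 2 highest and replicate 3 lowest. The difference on the log2(FPKM + 1) scale was 1.49 ± 0.264 (limma adjusted p = 0.147), a scale that understates the change of a gene this low. C3 and C1q did not keep one proportion: C3 was 5.03%, 7.44% and 3.01% of the summed C1q FPKM in CD11b+ replicates 1, 2 and 3, against 0.435% to 1.13% in CD11b- B cells and 0.551% to 1.07% in PMs.

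C4b, the fourth component that C1 cleaves, was at 1.501, 1.14 and 0.917 FPKM in CD11b+ B cells and at 0.768, 0.715 and 0.959 FPKM in CD11b- B cells. The groups overlapped, since CD11b+ replicate 3 was below CD11b- replicate 3. The difference was 0.26 on the log2(FPKM + 1) scale, with a 95% interval from -0.25 to 0.77 (limma adjusted p = 0.727). Relative to the summed C1q FPKM, C4b stood at 2.37% to 3.60% in CD11b+ B cells, below the 7.63% to 11.2% of CD11b- B cells and the 10.02% to 17.3% of PMs.

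Cfb, the protease of the alternative pathway convertase, was at the edge of detection in B cells. CD11b+ replicates 1, 2 and 3 had 9, 9 and 0 reads, and the CD11b- libraries had 1 read in all. The ratio of reads per read on genes was 19.9, with an exact 95% interval from 3.14 to 829 that covers counting error only, and the gene was below the filter of the limma test.

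Cfp encodes properdin, the stabilizer of that convertase. It was at 284, 274 and 170 FPKM in CD11b+ replicates 1, 2 and 3 and at 333, 327 and 175 FPKM in CD11b- replicates 1, 2 and 3. In both groups replicate 3 was the low library, and the groups overlapped. The difference was -0.17 on the log2(FPKM + 1) scale (95% interval from -0.87 to 0.52, limma adjusted p = 0.845). With 37376 reads in CD11b+ and 48881 reads in CD11b- B cells, depth does not limit this comparison.

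The receptors of the anaphylatoxins were unequal among the CD11b+ libraries. C3ar1, the C3a receptor gene, was at 1.28, 0.390 and 0.072 FPKM in CD11b+ replicates 1, 2 and 3 (162, 44 and 11 reads), against 0.077, 0.053 and 0.087 FPKM in CD11b- B cells. Replicates 1 and 2 were above all CD11b- libraries and replicate 3 was among them. C5ar1, the C5a receptor gene, was at 2.58, 2.78 and 0.088 FPKM in CD11b+ replicates 1, 2 and 3 (195, 187 and 8 reads), against 0.105, 0.056 and 0.073 FPKM in CD11b- B cells. It was high in CD11b+ replicates 1 and 2 only, and replicate 3 lay below CD11b- replicate 1. The differences on the log2(FPKM + 1) scale were 0.49 ± 0.260 for C3ar1 (limma adjusted p = 0.686) and 1.19 ± 0.451 for C5ar1 (limma adjusted p = 0.631). With single libraries left out, the difference of C3ar1 ranged from 0.19 (without CD11b+ replicate 1) to 0.73 (without CD11b+ replicate 3). That of C5ar1 ranged from 0.87 (without CD11b+ replicate 2, limma adjusted p = 0.675) to 1.77 (without CD11b+ replicate 3, limma adjusted p = 0.0415).

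**Figure D2:**
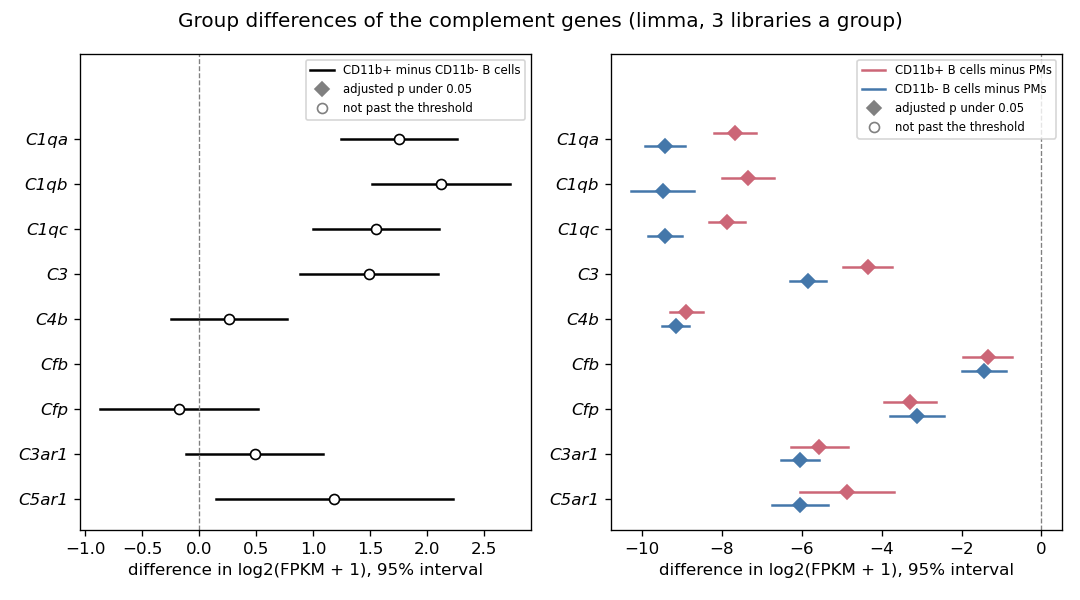
Differences in log2(FPKM + 1) with 95% intervals from limma, 3 libraries a group, for CD11b+ against CD11b- B cells (left) and for each B cell group against PMs (right). On the left no gene was past the threshold and Cfb was not tested, and on the right all 9 genes were lower in both B cell groups, past the threshold (filled diamonds).

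An exact two-sided permutation test of 3 libraries against 3 cannot give less than p = 0.1, and this value was reached by C1qa, C1qb, C1qc and C3. The call depended on the test. On the whole reads behind the FPKM values, DESeq2 called C1qa, C1qb, C1qc, C3 and C5ar1 higher (5 of 8 tested, where it called 1.45% of all genes higher), and edgeR called C1qb and C3 (2 of 7 tested, 0.269% of all genes). With no filter edgeR called the same 5 genes as DESeq2 (1.11% of all genes), and on the table of normalized counts it called C1qb, C1qc and C3 (0.641%). By its name that table holds genes already selected at a p-value cutoff. The call on it is therefore not independent and adds no support. Limma itself called C1qa and C1qb with a pseudocount of 0.1 (0.156% of all genes), the 3 C1q chains with a minimum mean of 1 FPKM (0.259%) and with all 9 libraries in one fit (0.142%), and C1qb with median-ratio scaling (0.0805%). It called C1qb without CD11b- replicate 3 (0.0319%) and C5ar1 without CD11b+ replicate 3 (0.187%).

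RNA of markers of several other cell types, but not of all, was higher in CD11b+ B cells along with these genes. Over all genes tested, 8.63% had every CD11b+ library above every CD11b- library. Summed over 12 macrophage markers, CD11b+ replicates 1, 2 and 3 had 286, 266 and 87.3 FPKM, against 34.8 to 47.6 FPKM in CD11b- B cells, and 9 of the 12 did not overlap. Lyz2, the lysozyme gene of macrophages and granulocytes, made up 261, 240 and 65.4 FPKM of these sums, and the other 11 markers summed to 24.7, 25.8 and 21.9 FPKM, against 3.98 to 7.33 FPKM in CD11b- B cells. Summed over 12 markers of BM resident macrophages, the CD11b+ libraries had 25.6, 23.7 and 16.3 FPKM, against 3.34 to 3.69 FPKM in CD11b- B cells, and without Hmox1 they had 11.5, 11.7 and 11.2 FPKM. Summed over 12 neutrophil markers, they had 644, 1547 and 216 FPKM, against 1.78 to 3.02 FPKM, and 11 of the 12 did not overlap, although cells with the granulocyte marker Gr-1 had been depleted before the sort. No gene of these lists was at 0 in all CD11b+ libraries, and in the group mean Ly6g stood at 1.94 FPKM, Adgre1, the gene of F4/80, at 2.94 FPKM and Vcam1 at 0.993 FPKM. Monocyte markers summed to 908 to 1141 FPKM in CD11b+ and 626 to 659 FPKM in CD11b- B cells, most of it Ifi27l2a. Among the monocyte markers Chil3 was at 42.7, 63.5 and 4.54 FPKM in CD11b+ replicates 1, 2 and 3, against 0.0734 to 0.0878 FPKM in CD11b- B cells. Markers of erythroid cells (31.7 to 42.2 against 8.33 to 24.5 FPKM), of basophils and mast cells (1.57 to 2.79 against 0.0206 to 0.107 FPKM) and of plasmacytoid dendritic cells (61.2 to 87.2 against 45.3 to 51.3 FPKM) also had higher sums in CD11b+ than in CD11b- B cells, without overlap, although cells with the erythroid antigen TER119 had also been depleted. By single gene, 1 of 7 erythroid, 1 of 5 basophil and mast cell and 3 of 5 plasmacytoid markers lay above without overlap. The erythroid marker Car2 had the lower mean in CD11b+ B cells (2.93 against 4.22 FPKM). Bst2 made up most of the plasmacytoid sums, with 51.5 to 78.0 FPKM in CD11b+ and 38.2 to 45.2 FPKM in CD11b- B cells. Plasma cell markers (7 genes) had another order, with 288, 252 and 641 FPKM in CD11b+ replicates 1, 2 and 3 and 101 to 179 FPKM in CD11b- B cells. Other lists were not higher. The sums of peritoneal macrophage markers (74.4 to 83.4 against 73.2 to 92.1 FPKM) overlapped, as did those of conventional dendritic cell, T cell, NK cell and megakaryocyte markers. Stromal and endothelial markers had the lower sum (33.6 to 39.9 against 44.1 to 52.2 FPKM), most of it Pecam1, although 6 of the 7 had the higher mean in CD11b+ B cells. The part of any of these cells in the values of the complement genes was not tested.

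Within the CD11b+ group the complement genes differed in their spread. C1qa, C1qb and C1qc differed by 1.35-fold, 1.18-fold and 1.42-fold between the highest and the lowest CD11b+ library, and the summed BM resident macrophage markers by 1.57-fold (1.04-fold without Hmox1). C3 differed by 2.59-fold, C3ar1 by 17.7-fold and C5ar1 by 31.5-fold, and the summed macrophage markers by 3.27-fold (1.18-fold without Lyz2) and the neutrophil markers by 7.18-fold (7.10-fold without S100a9). Replicate 3 was the lowest library for 7 of the 9 genes, all but C1qa and C1qb, and for the macrophage, BM resident macrophage and neutrophil sums. With 3 libraries this is a description and was not tested.

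**Figure D3:**
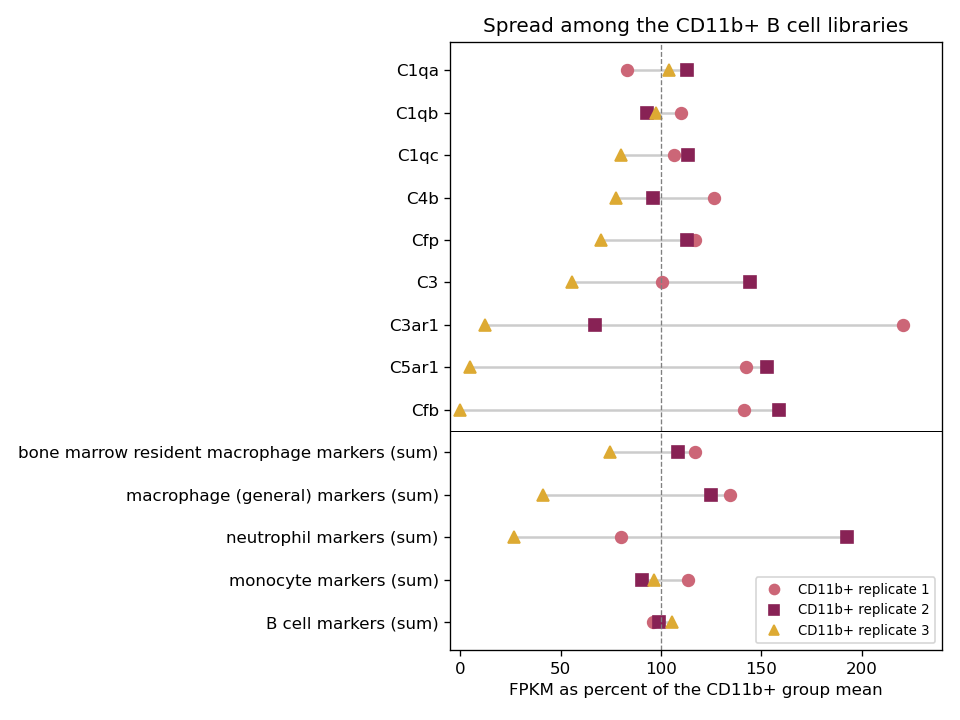
FPKM in each CD11b+ B cell library as percent of the mean of the 3 libraries, for the complement genes (top) and for summed marker lists (bottom). The C1q chains stayed between 80.0% and 113% of their means, whereas replicate 3 was at 12.5% for C3ar1, 4.86% for C5ar1 and 0 for Cfb.

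Against PMs, all 9 complement genes were lower in CD11b+ B cells and all 9 in CD11b- B cells, without overlap between libraries. Limma called 8.78% of all genes tested lower in CD11b+ B cells than in PMs and 11.0% lower in CD11b- B cells. All libraries of the B cell group were below all PM libraries for 12.4% and 15.2% of genes. Both comparisons share the PM libraries, so each is given by its own values. The calls of C1qa, C1qb, C1qc, C3, C4b, Cfp, C3ar1 and C5ar1 stood under every alternative, and that of Cfb under every alternative that tested it.

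C1qa was at 1574, 2479 and 1870 FPKM in PM replicates 1, 2 and 3, C1qb at 2819, 5191 and 5012 FPKM and C1qc at 1640, 1986 and 1955 FPKM. The C1q chains in CD11b+ B cells were thus at 0.434%, 0.569% and 0.376% of the PM means, and in CD11b- B cells at 0.093%, 0.119% and 0.093%. On the log2(FPKM + 1) scale the C1q genes differed from PMs by -7.35 to -7.87 in CD11b+ B cells and by -9.42 to -9.48 in CD11b- B cells.

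C4b was at 1043, 968 and 1074 FPKM in PMs, and at 0.115% of that mean in CD11b+ and 0.079% in CD11b- B cells. Its differences from PMs, -8.89 and -9.15 on the log2(FPKM + 1) scale, were among the widest of the 9 genes. C3 was at 64.6, 53.2 and 63.5 FPKM in PMs, and at 3.46% of that mean in CD11b+ but 0.109% in CD11b- B cells, with differences of -4.35 and -5.84. Cfb was at 1.89, 1.14 and 2.30 FPKM in PMs, so that even the macrophages held little of it, and the differences were -1.34 (limma adjusted p = 0.0065) and -1.44 (limma adjusted p = 0.0027).

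Cfp came nearest to the macrophage level. PMs had 2233, 2518 and 2278 FPKM, and the means of CD11b+ and CD11b- B cells were 10.4% and 11.9% of the PM mean. The differences were -3.30 ± 0.284 and -3.12 ± 0.289 on the log2(FPKM + 1) scale (limma adjusted p = 9.19e-05 and 0.00016). C3ar1 was at 80.8, 58.8 and 72.3 FPKM in PMs and fell by 5.56 and 6.05 on that scale. C5ar1 was at 44.3, 86.4 and 91.7 FPKM in PMs, with replicate 1 lowest, and fell by 4.87 and 6.05.

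In CD11b- B cells, 8 of the 9 genes had a mean below 0.3% of the PM mean, and the exception was Cfp. Of 12 peritoneal macrophage markers 10 were below 0.3%, with a median of 0.0959%, and of the 12 general macrophage markers 9, with a median of 0.128%, beside a median of 0.105% for the 9 complement genes. Of the 12 BM resident macrophage markers 5 were below 0.3%, with a median of 0.734%. In CD11b+ B cells the median of the complement genes was 0.823%, that of the peritoneal markers 0.165%, that of the general macrophage markers 1.0% and that of the BM resident macrophage markers 4.87%. C4b (0.115%) was in the range of peritoneal markers such as Prg4 (0.120%) and Alox15 (0.105%), while C1q, C3 and the receptors were above 11 of the 12 peritoneal markers and below Icam2 (9.72%). Whether RNA from macrophages contributed to these low levels was not tested.

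**Figure D4:**
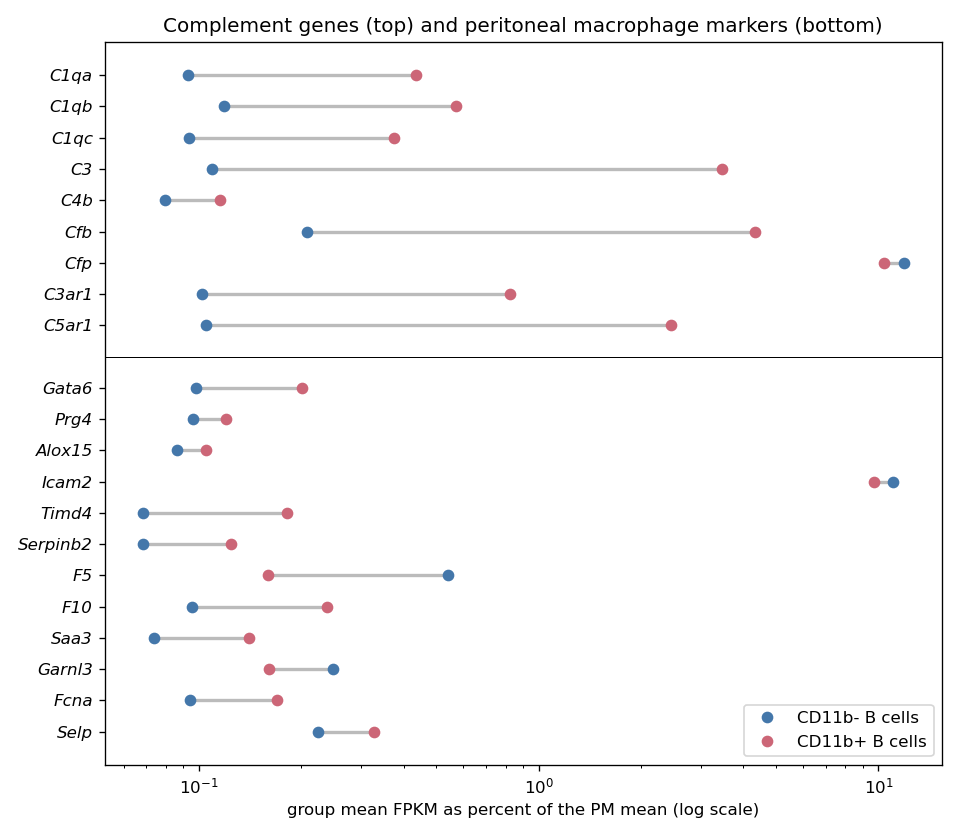
Group mean FPKM of CD11b- and CD11b+ B cells as percent of the PM mean (log axis) for the 9 complement genes and 12 peritoneal macrophage markers. Most points of CD11b- B cells lie near 0.1%, C3, Cfb and C5ar1 reach 2.45% to 4.32% in CD11b+ B cells, and Cfp and Icam2 lie near 10% in both groups.

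The direction against PMs was read relative to a shift of all genes. The median difference of all genes was 0.25 (CD11b+) and 0.24 (CD11b-) on the log2(FPKM + 1) scale, and the calls split into 4760 upward and 1940 downward for CD11b+ B cells, and 5404 upward and 2306 downward for CD11b- B cells. Median-ratio scaling moved the medians to 0.09 and 0.03 and the calls to 2716 higher and 2729 lower, and 3164 higher and 3234 lower. The complement genes stayed lower under both scalings.

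Of 48 other genes of the pathway, 18 had a mean of at least 1 FPKM in a group, 15 of them in PMs, 11 in CD11b+ and 9 in CD11b- B cells. Between the B cell groups 25 were tested and limma called 0, beside 0.0689% of all genes called higher. At an unadjusted p under 0.05, 4 were higher and 0 lower, beside 4.65% and 3.04% of all genes. The median difference of the 25 genes was 0.09, beside 0.03 for all genes. The 4 genes were Itgam, C1rl, Fcnb and Cd59a. In CD11b- B cells the means of C1rl, Fcnb and Cd59a were 0.0098, 0.0149 and 0.0115 FPKM, under the filter of 0.05 FPKM. These genes were tested only because they were high in CD11b+ B cells, so their place in the count is no support for a direction. Itgam encodes CD11b itself, the marker of the sort and a chain of complement receptor 3, and was at 1.92, 1.31 and 1.51 FPKM in CD11b+ replicates 1, 2 and 3, against 0.3996, 0.251 and 0.869 FPKM in CD11b- B cells. Fcnb, a ficolin of neutrophils and a recognition molecule of the lectin pathway, was at 3.31, 7.42 and 0 FPKM in CD11b+ replicates 1, 2 and 3, with 390 reads against 2 in CD11b- B cells.

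Against PMs, limma placed 4 pathway genes above and 10 below in CD11b+ B cells (25 tested, where 21.5% of all genes were above and 8.78% below), and again 4 above and 10 below in CD11b- B cells (24 tested, 25.8% and 11.0% of all genes). The 4 higher genes were Cr2, Cd55, C1qbp and C8g in both. Cr2, which encodes CD21, was at 34.0, 30.2 and 32.0 FPKM in CD11b+ replicates 1, 2 and 3, at 25.9 to 40.6 FPKM in CD11b- B cells and at 0.136 to 0.265 FPKM in PMs. Cd55, the gene of decay-accelerating factor, which dismantles C3 convertases, was at 60.2 to 77.8 FPKM in CD11b+ B cells, 64.6 to 77.0 FPKM in CD11b- B cells and 1.33 to 2.57 FPKM in PMs. Both were far above PMs and did not separate the B cell groups. C1qbp, a mitochondrial protein that also binds C1q, was at 60.9, 49.4 and 25.2 FPKM in the means of CD11b+ B cells, CD11b- B cells and PMs, and C8g, a chain of C8, at 4.62, 6.08 and 0.899 FPKM.

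Of the receptor and recognition genes that were lower in both B cell groups than in PMs, Fcna (ficolin A) had 1.91, 1.06 and 1128 FPKM in the means of CD11b+ B cells, CD11b- B cells and PMs. Vsig4, the receptor by which tissue macrophages bind C3 fragments, had 0.418, 0.134 and 202 FPKM. Itgb2, the β2 integrin chain that pairs with CD11b, had 53.6, 56.1 and 557 FPKM, and Itgam had 1.58, 0.507 and 288 FPKM. Lrp1, Cd93, C1ra, C1rl and Colec12 were also lower in both, C5ar2 was called lower only in CD11b+ B cells and Itgax only in CD11b- B cells, a difference between comparisons that was not tested. Cr1l, a membrane regulator of C3 and C4 fragments, was at 10.2 to 15.1 FPKM in all 9 libraries. Calr, the gene of calreticulin, a chaperone that also binds C1q, was at 94.3 to 131 FPKM in CD11b+ B cells, 103 to 110 FPKM in CD11b- B cells and 120 to 195 FPKM in PMs, and limma did not call it between the B cell groups (adjusted p = 0.832) or against PMs (adjusted p = 0.274 for CD11b+ and 0.111 for CD11b- B cells). Among the 7 genes of the terminal pathway, C8g alone reached a mean of 1 FPKM in a group.

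**Figure D5:**
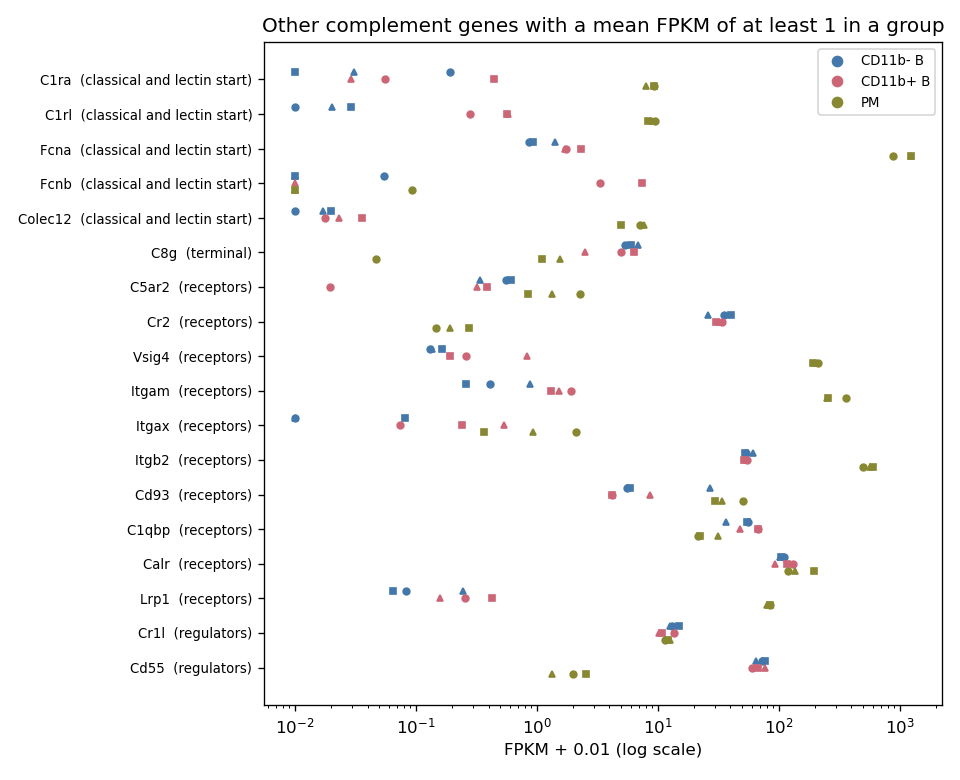
FPKM + 0.01 (log axis) in each library for the 18 other complement genes with a mean of at least 1 FPKM in a group, with the role of each gene in brackets. Cr2 and Cd55 of the B cell groups lie far above PMs, Fcna, Vsig4, Itgam and Lrp1 of PMs lie far above B cells, and Cr1l overlaps in all groups.

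For each complement gene the gene outside the set with the nearest profile was found among 12485 genes with a mean of at least 1 FPKM, by the mean absolute difference in log2(FPKM + 1) over the 9 libraries. It was Ecm1 for C1qa (0.55), Slpi for C1qb (0.65) and Ccl6 for C1qc (0.48). For C3 it was Csf3r (0.21), with 1.38, 0.0792 and 62.9 FPKM in the means of CD11b+ B cells, CD11b- B cells and PMs, beside 2.09, 0.0658 and 60.4 FPKM of C3. For C4b it was Fn1 (0.13), with 1.25, 0.868 and 969 FPKM beside 1.19, 0.814 and 1028 FPKM. C3ar1 was nearest to Lpl (0.12), C5ar1 to Cd300ld (0.23) and Cfb to Fnip2 (0.18). Cfp was nearest to Laptm5 (0.70), a poorer match than that of any other complement gene.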

How the data were processed

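RNA from 3 libraries each of CD11b+ B cells, CD11b- B cells and PMs was analysed, grouped by the sample labels. After amplification of whole transcripts and read trimming, the authors used STAR 2.7.2b (GRCm38, by their methods) and featureCounts 1.6.1. The sample labels list GRCm39 beside GRCm38 without saying what each was used for, so the build behind the deposited values is uncertain. The FPKM values the authors deposited are read counts scaled by exon length and by depth. A second deposited table gives a normalized signal, in which the reads of 11063 genes were scaled per library. The strand setting of the counting was not stated in the sources used here.

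Multiplied by exon length, the FPKM values gave whole reads for 100% of values within 0.05 of a read. Amplified reads without molecular identifiers are not molecules, so intervals cover counting error only. Differences were tested with limma 3.58.1 (trend, two-sided) on log2(FPKM + 1) within each pair of groups (6 libraries), leaving out genes whose mean was under 0.05 FPKM. P-values were adjusted by Benjamini-Hochberg over every gene tested, and the threshold was 0.05. Alternatives were a pseudocount of 0.1, no filter, a minimum of 1 FPKM, a joint fit of all 9 libraries, blocks by replicate number, median-ratio scaling, quantile normalization, edgeR 4.0.16 (quasi-likelihood), DESeq2 1.42.0 and each library left out in turn. On CD11b+ against CD11b- B cells, edgeR on the whole reads called 42 genes higher and DESeq2 328. In simulated data with 200 genes changed 8-fold, limma recovered 199 and made 20 false calls (9.13% of its calls) for CD11b+ against CD11b- B cells (21727 genes), 200 and 18 (8.26%) for CD11b+ B cells against PMs (22033 genes), and 198 and 31 (13.5%) for CD11b- B cells against PMs (20912 genes), above the nominal 5%. The simulation gave every gene the same dispersion, 0.05, and changed only genes with a mean of at least 1 FPKM. In the CD11b+ libraries the SD of C3, C3ar1 and C5ar1 was 44.3%, 108% and 82.6% of the mean. The recovery therefore does not show the power of the test for genes such as these.

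The complement genes, pathway genes and marker lists were chosen with earlier results of these data known. The 9 genes are always named, and other pathway genes where past the threshold or with a mean of at least 1 FPKM in a group, and the rest of that list enters counts only. Positions are those of GENCODE M21 (GRCm38) by identifier, and promoters those of RefSeq (GRCm38.p6). A further gene of the pathway is not reported here.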

Additional observations from a re-analysis of the deposited data

How the results depend on the processing

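In CD11b+ against CD11b- B cells limma called 0 of 8 complement genes, and the count called higher moved with the method. It is given here with the share of all genes tested. With limma it was 2 with a pseudocount of 0.1 (0.156%), 3 with a minimum mean of 1 FPKM (0.259%), 3 with all 9 libraries in one fit (0.142%) and 1 with median-ratio scaling (0.0805%). With edgeR it was 2 (0.269%), 5 without a filter (1.11%) and 3 on the normalized-count table (0.641%), a list already selected by p-value. With DESeq2 it was 5 (1.45%). With limma the count ranged from 0 to 1 when single libraries were left out. The gene was C1qb without CD11b- replicate 3 (0.0319%) and C5ar1 without CD11b+ replicate 3 (0.187%). No filter and quantile normalization gave 0, where limma called 2 of 55322 and 9 of 21778 genes higher. C1qb passed in 9 of 18 alternatives, with adjusted p from 2.4e-08 to 0.656, and C4b, Cfp and C3ar1 in 0. On the log2(FPKM + 1) scale the difference of Cfp ranged from -0.48 (without CD11b- replicate 3) to 0.062 (without CD11b+ replicate 3) when single libraries were left out (limma adjusted p = 0.958 for the latter). B cell libraries with the same number in the title did not all deviate together (r = 0.203, -0.011 and 0.167). By the number in the description only the pairs of replicates 1 and 3 (r = 0.203 and 0.167) share one. These had the highest r between the B cell groups, the next being 0.099, but are too few for that check. No numbers were taken as pairs, and the main test ignores any such link. With a replicate block by the number in the title or the description, 0 complement genes were called between the B cell groups. Over all 21778 genes tested, the block by title called 16 higher and 0 lower, and the block by description called 0 in either direction. The block by description leaves almost nothing to estimate the spread from, so its 0 says nothing about the complement genes. Against PMs, where the block by title number was run, all 9 were called lower. Against PMs the count of genes called lower was 9 under each alternative, or 8 where Cfb was filtered out. The cause of these changes was not tested. Depth limits Cfb, C3, C3ar1 and C5ar1, which held 1, 34, 31 and 20 reads in CD11b- B cells.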
